A study of Mus musculus with 12 samples.

Results

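Collagens are the triple-helical proteins that form the fibrils, networks and filaments of the extracellular matrix. The members here were all peaks of N6-methyladenosine (m6A) that the deposited annotation assigned to a gene with a symbol of the form Col, number, a, number. They were 60 of the 27292 peaks in the list of asthmatic mice, on 22 genes, and 52 of the 26102 peaks in the list of control mice, on 20 genes. The false discovery rate of the caller was under 0.05 for all 60 and for 51 of the 52. Nearly all peaks of the whole lists passed it too, 26783 of the asthmatic and 25539 of the control mice. RefSeq lists 44 such genes in the mouse.

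Female BALB/c mice of 6 to 8 weeks formed both groups. OVA mice were injected into the peritoneum with ovalbumin and aluminum hydroxide on days 0 and 7 and breathed an aerosol of 3% ovalbumin for 30 min daily from day 14 to day 20, a model of acute allergic asthma. PBS mice, the controls, were injected with and breathed phosphate-buffered saline on the same days. Lung tissue was taken on day 21, after a methacholine test of the airways, when lavage fluid was also collected. Immunoprecipitation sequencing of m6A (MeRIP-seq) was done on 3 lung samples per group. Each gave 1 library of antibody-bound RNA fragments (IP) and 1 of the fragments before immunoprecipitation (input).

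A peak is a stretch of a transcript with more IP than input reads. Its fold enrichment divides the IP signal by that of the input. Its p, given as log10, depends on the enrichment and on the number of reads in the peak. The lists hold no read numbers, so the depth behind a single peak is unknown. Each group had 1 list for its 3 mice, so no value has a replicate error, and differences between the lists are described without a test. Below, OVA and PBS beside a value stand for the list of that group.

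Fibrillar collagens such as types I, III and V give tissue its tensile strength, type IV collagen forms the sheet of basement membranes, and type VI collagen forms beaded filaments between the basement membrane and the matrix around it. In the lung they are laid down mainly by fibroblasts and, for basement membranes, also by epithelium and endothelium, and collagen builds up below the airway epithelium in long-standing asthma. The m6A mark is placed on RNA by the METTL3 and METTL14 methyltransferase complex, is found mostly in long internal exons and near stop codons, and is known to affect the decay and translation of the RNA. The antibody also binds a related mark next to the cap at the first base of a transcript.

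The assigned gene was not always the gene on which the peak had been called. Peaks were assigned to the gene with the nearest transcript start, and of the collagen peaks 56 of 60 in OVA and 47 of 52 in PBS had been called on the same collagen gene. The other peaks were those of Col9a3, all called on the neighbouring Ogfr, the single peak of Col14a1, called on Deptor at a distance of -51866 bp from the Col14a1 start in the OVA list, and 1 Col8a2 peak per list, called on Trappc3. Col9a3 and Col14a1 thus had no peak of their own RNA. In the other direction, 15 peaks of OVA and 18 of PBS called on a collagen gene were assigned to another gene. Called peaks numbered 71 in OVA and 65 in PBS, each on 23 collagen genes. Among all peaks with a known called gene, 23.6% in OVA and 23.9% in PBS had been called on a gene other than the assigned one. Values for peaks seen by the called gene alone are marked as such below.

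Type VI genes held 30 of the 60 collagen peaks in OVA and 25 of the 52 in PBS. Fibrillar genes came next, with 11 and 9 peaks. Each remaining family had 5 or fewer peaks in a list. Col6a3, the longest of the chains that make up the main type VI molecule, had the most peaks of any collagen gene, 9 in OVA and 8 in PBS. Of the 14126 genes with an assigned peak in the OVA list, 58 had as many as 9. Col6a5 with 7 and Col6a2 with 5 followed in the OVA list, and Col6a4 with 5 and then Col6a2 and Col6a5 with 4 each in the PBS list.

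Collagen peaks lay more in exons and less in 3′ UTRs than the peaks of the whole lists. In the OVA list 35 of 60 collagen peaks lay in exons outside the UTRs (58.3%, 95% Wilson interval 45.7% to 69.9%), beside 35.7% of all peaks. The 3′ UTR held 30% of the collagen peaks (19.9% to 42.5%), beside 52.7% of all peaks, and the 5′ UTR 11.7%, beside 11.6%. The intervals cover counting error only. The PBS list gave 53.8% in exons (40.5% to 66.7%) and 34.6% in 3′ UTRs (23.2% to 48.2%), beside 35.9% and 52.7% of all peaks. By the called gene, exons held 56.3% in OVA and 49.2% in PBS. The 3′ UTR share by the called gene was 33.8% in OVA (23.9% to 45.4%) and 41.5% in PBS (30.4% to 53.7%). The PBS interval then took in the share of all peaks. With only the peak of lowest p of each gene, the differences were smaller. The 3′ UTR then held 50% of the collagen peaks in OVA and 55% in PBS, and exons 45.5% and 40%. The same choice over all genes, made after the data were seen, gave 59.8% and 59.9% in 3′ UTRs and 30.9% and 31% in exons.

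With every collagen peak counted, the difference lay mainly with the type VI genes. Of their peaks, 23 of 30 in the OVA list (76.7%) and 20 of 25 in the PBS list (80%) lay in exons. Without them, 12 of 30 collagen peaks of the OVA list (40%) and 8 of 27 of the PBS list (29.6%) did so, and these intervals took in the shares of all peaks.

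**Figure D1:**
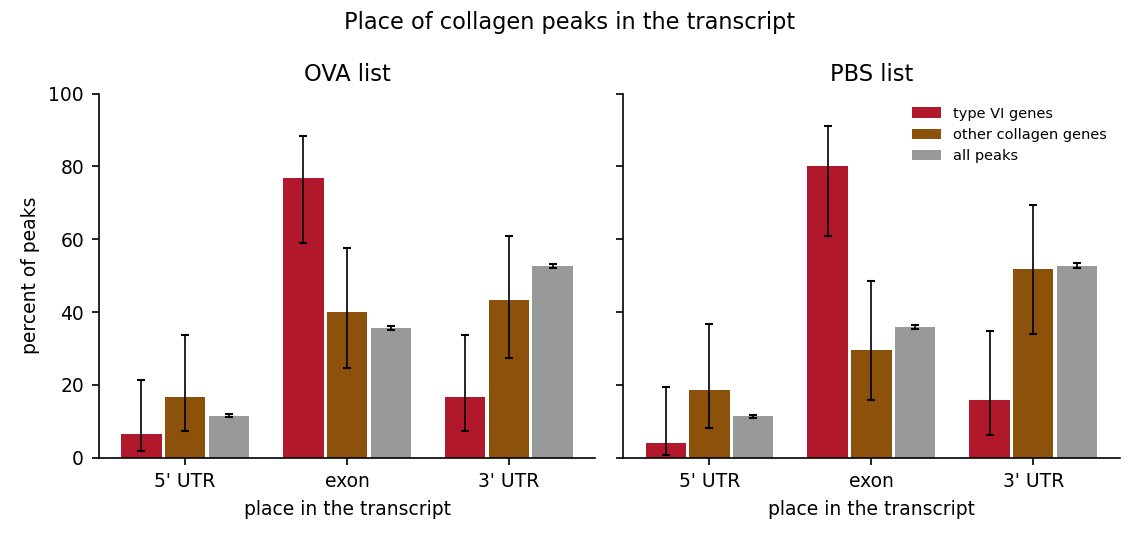
Percent of peaks in the 5′ UTR, exons and 3′ UTR, for type VI genes, other collagen genes and all peaks, in the OVA list (left) and the PBS list (right); bars are shares and lines their 95% Wilson intervals. Exons held 76.7% and 80% of the type VI peaks, beside 35.7% and 35.9% of all peaks.

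The median fold enrichment of collagen peaks was 4.04 in the OVA list (quartiles 2.97 and 7.1) and 4.78 in the PBS list (2.65 and 7.71). Over all peaks it was 5.59 and 5.44. The 95% order-statistic intervals of the collagen medians, 3.23 to 6.07 and 3.08 to 5.94, took in both. They treat peaks as independent, although many came from the same gene and type VI genes alone held 30 in OVA and 25 in PBS. The collagen medians by the called gene were 4.9 and 5.43, the latter level with its list. Type VI peaks had medians of 3.25 in OVA and 5.59 in PBS, and peaks of the other collagen genes 5.24 and 3.56. With the peak of lowest p of each gene the collagen medians rose to 6.27 and 5.48, above those of all peaks but under the 7.99 and 7.59 of the same choice over all genes.

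Of the OVA collagen peaks, 15 of 60 (25%, Wilson interval 15.8% to 37.2%) shared no base with any PBS peak, beside 19.4% of all OVA peaks. Of the PBS collagen peaks, 3 of 52 did so (5.77%, 1.98% to 15.6%), beside 14.5% of all PBS peaks. The OVA share was near that of its list, and so was the PBS share when peaks were taken by the called gene (8 of 65, 12.3%). Of the peaks without overlap, type VI genes held 9 of the 15 in OVA and 2 of the 3 in PBS.

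The other 45 OVA collagen peaks were paired with the PBS peak that they overlapped most. The median ratio of their fold enrichments, OVA over PBS, was 1.13, or 0.18 on the log2 scale. Over all 22006 pairs of the lists it was 1.08, or 0.12 on the log2 scale, so ratios are read against that shift. It was exceeded by 26 of the 45 collagen pairs.

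At least 2 times higher fold enrichment in the OVA list was found for 1 of 45 collagen pairs, beside 7.63% of all pairs. That pair, with a ratio of 2.23, was a Col8a2 peak called on Trappc3. The next ratios were 1.98 for a Col9a3 peak called on Ogfr and 1.86 for Col27a1. Those 2 OVA peaks each overlapped 2 PBS peaks, and against the partner of the smaller overlap their ratios were 2.31 and 1.11. At least 2 times higher fold enrichment in the PBS list was found for 4 collagen pairs, beside 6.79% of all pairs. These were 2 pairs of Col6a6 and 1 pair each of Col6a5 and Col6a4, neighbouring genes on chromosome 9. Log10 p values of their PBS peaks were small in size, from -7.7 to -2.91. By the called gene, 2 of 54 pairs were at least 2 times higher in OVA and 5 in PBS.

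**Figure D2:**
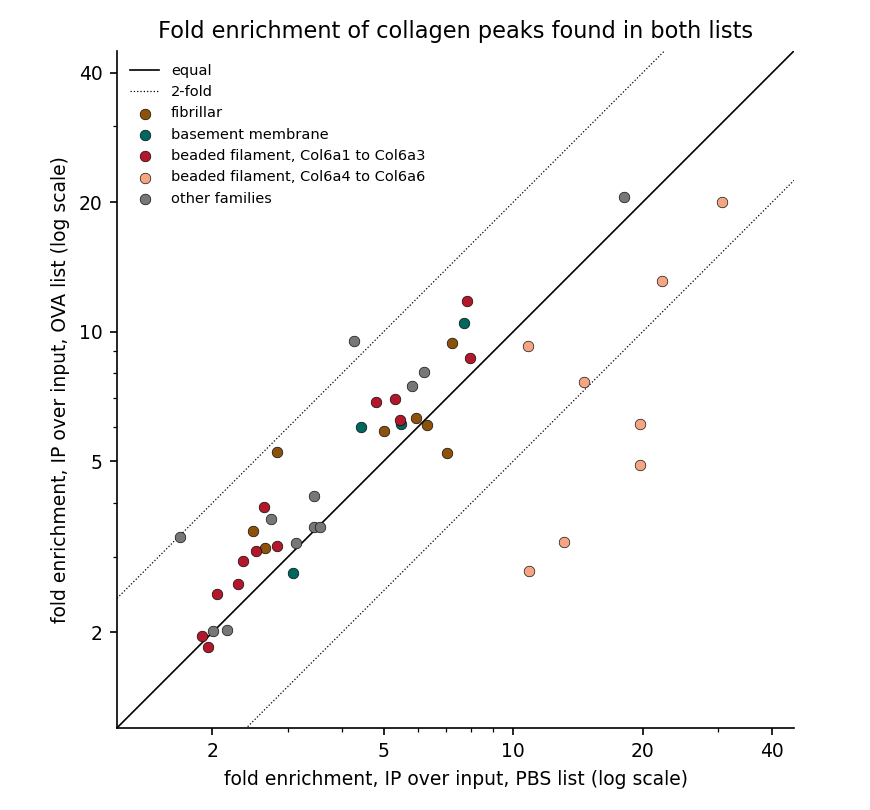
Fold enrichment in the PBS list (horizontal, log scale) and in the OVA list (vertical, log scale) of the 45 collagen pairs, with colours for families; the solid line marks equal values and the dotted lines a 2-fold difference. The 8 pairs of Col6a4, Col6a5 and Col6a6 lie below the line of equality, and 12 of the 13 pairs of Col6a1, Col6a2 and Col6a3 lie above it.

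The peak p was compared in the same pairs. It was lower in the OVA list for 34 of the 45 collagen pairs (75.6%), beside 57.3% of all pairs. All 21 type VI pairs had the lower p in the OVA list, against 13 of the 24 pairs of other collagen genes (54.2%). By the called gene 24 of 25 type VI pairs did so, the exception being a Col6a3 pair with log10 p values of -126 in OVA and -166 in PBS. OVA peaks also had more bases in their blocks, the exonic parts of a peak, in 31 of the 45 pairs, beside 47.7% of all pairs, and 19 of these 31 were type VI pairs. In lung tissue of mixed cells, more cells of a type and more RNA per cell cannot be told apart. The part of RNA amount in these p values was not tested.

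**Figure D3:**
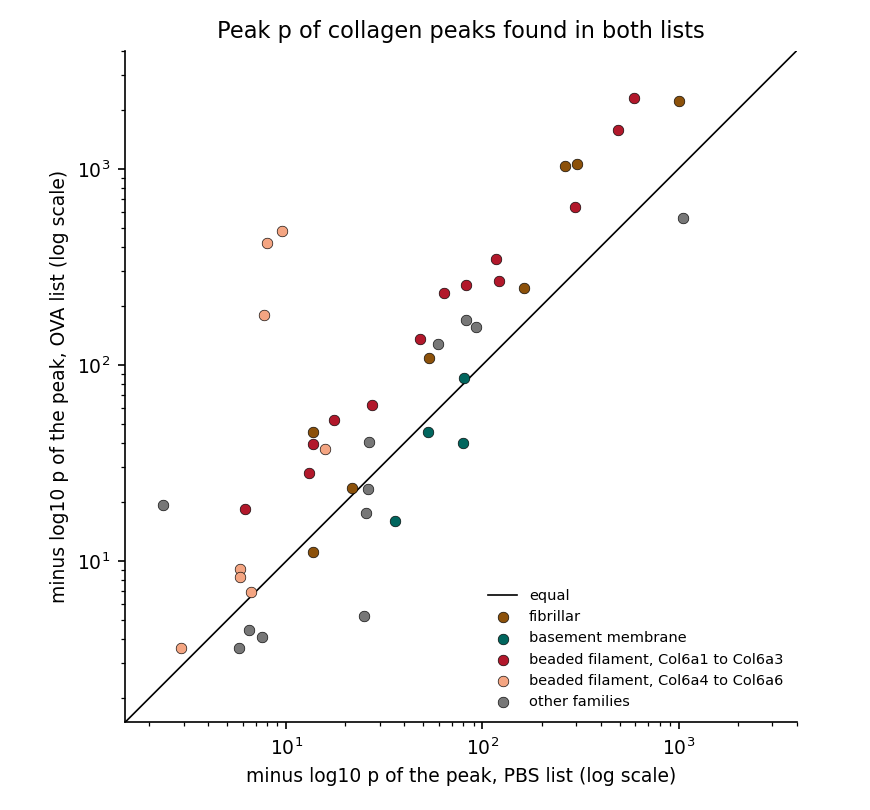
Minus log10 of the peak p in the PBS list (horizontal, log scale) and in the OVA list (vertical, log scale) of the 45 collagen pairs, with colours for families; the line marks equal values. All 21 type VI pairs lie above the line, and 3 of the 4 basement membrane pairs lie below it.

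Among the fibrillar collagens, the chains of types I, III and V are the ones that build the mixed fibrils of lung interstitium. Col1a1, the main chain of type I collagen, had a 3′ UTR peak at chr11:94951573-94951933 in the OVA list, with a fold enrichment of 5.87 and a log10 p of -1060. Its PBS partner had a fold enrichment of 5.01 and a log10 p of -303. A second Col1a1 3′ UTR peak, seen by the called gene alone, had fold enrichments of 11.9 and 11.6 and log10 p values of -431 and -50.4 in the OVA and PBS lists. Fold enrichments of Col1a1 were thus near each other between the lists, while the p values were lower in the OVA list.

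Col1a2, the other chain of type I collagen, showed the same order. Its single peak in the 3′ UTR covered chr6:4540525-4541155 in both lists. Its fold enrichment was 6.07 in OVA and 6.3 in PBS, with log10 p values of -2210 and -1000. Col5a2, a chain of the type V collagen that sits in the core of type I fibrils, had a 3′ UTR peak with fold enrichments of 6.29 and 5.94 and log10 p values of -1030 and -264.

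Col5a1, the partner chain of Col5a2, had 4 OVA and 3 PBS peaks. Its 5′ UTR peak at chr2:27886424-27886575 had the same borders in both lists and fold enrichments of 9.41 in OVA and 7.22 in PBS. Its strongest 3′ UTR peak by p, at chr2:28036880-28037389, had the higher fold enrichment in the PBS list, 7.02 against 5.23. The fourth OVA peak, in the 3′ UTR with a fold enrichment of 1.67, had no PBS partner.

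Col3a1, the type III chain that forms fine fibrils with type I, had no assigned peak. By the called gene it had 1 peak per list, at chr1:45315793-45316033 in the OVA list, near the 5′ end of the gene, assigned to Gm47302. Its fold enrichments were 4.06 and 4.98 and its log10 p values -32.1 and -21.6 in the OVA and PBS lists. No 3′ UTR peak was listed for Col3a1, unlike for Col1a1 and Col1a2.

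Over Col1a1, Col1a2, Col3a1, Col5a1 and Col5a2, taken by the called gene and grouped after their values were seen, all 8 pairs had the lower p in the OVA list. Their median fold enrichment ratio was 1.04, under the 1.08 of all pairs. Over the whole fibrillar family 9 of 10 pairs had the lower p in OVA, the exception being the 3′ UTR pair of Col27a1, with log10 p values of -11.1 in OVA and -13.6 in PBS.

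Among the minor fibrillar genes, Col24a1 was listed in the OVA list only. It encodes a minor fibrillar chain known mainly from bone. Its peaks, both in exon 3 of 60, lay at chr3:145314100-145314340, with a fold enrichment of 16.6 and a log10 p of -31.6, and at chr3:145314757-145314937, with 5.25 and -21.8. The first had the third highest fold enrichment of all assigned OVA collagen peaks. Col27a1, a fibrillar chain of cartilage, had a 1138 bp OVA peak in exon 3 where the PBS list had 2 peaks of 390 and 719 bp.

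In the basement membrane family, peaks were listed for Col4a3, Col4a4 and Col4a5, the chains that assemble together in the basement membranes of alveoli and kidney. No peak was listed for Col4a1 and Col4a2, the chains found in nearly all basement membranes. Col4a3 had a 5′ UTR peak at chr1:82586920-82587220 and a 3′ UTR peak, each with the same borders in both lists. The first had fold enrichments of 10.5 in OVA and 7.67 in PBS but log10 p values of -39.9 and -79.8, so the higher enrichment went with the higher p.

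Col4a4, read by the called gene because its peaks were assigned to the antisense gene Gm28940, had 2 peaks per list in its 3′ UTR. The stronger had fold enrichments of 13.4 in OVA and 8.51 in PBS, with log10 p values of -406 and -798. Col4a5 had a 5′ UTR peak and a 3′ UTR peak in both lists, and a second 3′ UTR peak in the PBS list alone at chrX:141688993-141689174, with a fold enrichment of 3.08. By the called gene, 5 of the 6 type IV pairs had the lower p in the PBS list, against 1 of the 25 type VI pairs.

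Col4a3 and Col4a4 lie head to head and are transcribed away from each other. The 5′ UTR peak of Col4a3 shared 179 bases with the window from 250 bases before to 50 after a start of Col4a4 (chr1:82586800-82587099, GRCm38, minus strand). The lists give no strand for a peak, so it was read along Col4a3. To show what the antibody-bound RNA could hold there, the letters GGAC, the core of the sequence in which most m6A is found, were searched in the RefSeq windows that peaks reached. The Col4a3 strand held GGAC at 2 places in the shared bases and the opposite strand at 1. A background for 179 bases is not at hand, so these counts are not read as sites of the mark. Both places are shown on the plus strand with GGAC in capitals, at chr1:82586961-82586990 and chr1:82587063-82587092.
Col4a3, first place: cccaggatctcagGGACatcacatctttca
Col4a3, second place: tgcccggttgaagGGACagtgcctggcgaa

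Peaks covered the first 50 bases of a RefSeq transcript for 5 collagen genes: Col5a1, Col13a1, Col6a2, Col6a1 and Col4a5. RefSeq windows were at hand for 35 collagen genes. Of the 5, Col4a5 alone held GGAC in those bases on its own strand, beginning at base 10, while Col5a1, Col6a2 and Col4a5 held it on the opposite strand. Of all 32851 windows, 18.9% held GGAC in these bases of the transcript strand, so 1 in 5 was near the background. The Col4a5 place lies at chrX:141475415-141475444, plus strand, in a peak with fold enrichments of 2.75 in OVA and 3.08 in PBS.
Col4a5, transcript start: aagtagatttgtaGGACgttgagtgaggaa

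The beaded filament family was the only one with a peak for every gene in both lists. Col6a1, Col6a2 and Col6a3 encode the chains of the main type VI molecule, while Col6a4, Col6a5 and Col6a6 encode later-found chains that can take the place of Col6a3. The pairs split along this line, a grouping made after the values were seen. Fold enrichment was higher in the OVA list for 12 of the 13 pairs of Col6a1, Col6a2 and Col6a3, with a median ratio of 1.2, and 11 of the 13 lay above the 1.08 of all pairs. It was lower in the OVA list for all 8 pairs of Col6a4, Col6a5 and Col6a6, with a median ratio of 0.417. By the called gene the counts were 12 of 15 higher and 9 of 10 lower, the exception being a Col6a4 pair with a ratio of 2.49. PBS peaks of the 8 assigned pairs had log10 p values from -15.7 to -2.91, and those of the 13 from -596 to -6.15.

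Col6a1 had its strongest peak in the 3′ UTR at chr10:76709451-76710052, with fold enrichments of 6.87 in OVA and 4.79 in PBS. The log10 p values were -1580 and -493. Its 5′ UTR peak was weaker in both lists, at 2.45 and 2.05.

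Col6a2 had its strongest peak by p in exon 2 of 28, at chr10:76614379-76615089, with fold enrichments of 6.98 and 5.3 and log10 p values of -2300 and -596. This was the lowest p of any collagen peak in the OVA list. A 5′ UTR peak of 91 bp in the OVA list alone, at chr10:76623539-76623630, had a fold enrichment of 14.4 but a log10 p of only -4.01. A 929 bp 3′ UTR peak with the same borders in both lists, seen by the called gene alone, had fold enrichments of 5.47 and 6.14 in the OVA and PBS lists.

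Most exon peaks of Col6a3 lay in the 5′ part of the gene. Its peak of lowest p in both lists was in the 3′ UTR, at chr1:90766908-90768466 in the OVA list. That peak had fold enrichments of 6.24 in OVA and 5.47 in PBS and log10 p values of -639 and -297. In the OVA list the 8 exon peaks lay in exons 4, 5, 6, 7, 9, 10, 11 and 38 of 44, as annotated, and a ninth, by the called gene, in exon 3. These early exons are long and encode repeats of the von Willebrand factor A fold, while the triple helix is encoded by short exons in the middle of the gene. The highest fold enrichment of its OVA peaks was in exon 38, on the far side of the helix, at chr1:90778815-90779416, with 11.8 in OVA and 7.83 in PBS. In PBS the peak from exon 6 was slightly higher, at 7.95, against 8.7 in OVA. All 7 assigned pairs of Col6a3 had a higher fold enrichment, a lower p and more block bases in the OVA list, 3635 bp in all against 2796 bp. Of their ratios, 6 lay above the 1.08 of all pairs. The exon 3 pair, seen by the called gene alone, went the other way in all 3 measures. Its fold enrichments were 5.36 in OVA and 5.91 in PBS, its log10 p values -126 and -166, and its block bases 420 and 510. Of the assigned PBS peaks without overlap, the one of lowest p was also on Col6a3, in exon 4 at chr1:90822224-90822375, with a fold enrichment of 2.25 and a log10 p of -10.6.

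The 3 genes on chromosome 9 had the highest fold enrichments of the assigned PBS collagen peaks. Col6a5 reached 30.6 at chr9:105928113-105930916, in exon 7 of 41, and Col6a4 reached 22.2 at chr9:106072419-106074953, in exon 5 of 38. A second Col6a4 peak at chr9:106080224-106080464 and a Col6a6 peak at chr9:105782219-105782460 both reached 19.7. Log10 p values of these peaks were small in size, -9.45, -6.63 and, for both of the last, -5.81. High enrichment thus stood beside weak p values, and the lists do not say how many reads lay behind them.

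The p values of Col6a5 lay far apart between the lists. Its exon 7 peak at chr9:105928113-105931065 had 20-fold enrichment and a log10 p of -482 in OVA, against 30.6 and -9.45 in the PBS list. The peak at chr9:105933865-105937348 had 7.65 and -419, against 14.6 and -7.94. This OVA peak also overlapped a second PBS peak by fewer bases, with 17.8 and -5.15, for a ratio of 0.43. The peak at chr9:105864546-105875765, in exon 38 of 41, had 3.25 and -180, against 13.1 and -7.7. In each of the 3 pairs the OVA peak was the less enriched and had by far the lower p.

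Col6a5 also had 4 OVA peaks with no overlapping PBS peak. Among them were the OVA collagen peaks without overlap that had the lowest p, in exon 3 at chr9:105940246-105946072, with a fold enrichment of 3.09 and a log10 p of -80.4, and in the 3′ UTR at chr9:105857036-105857307, with 3.2 and -47.2. In all, Col6a5 peaks covered 3693 bp in OVA and 1234 bp in PBS. No 3′ UTR peak of Col6a5 was in the PBS list.

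Col6a6 had 4 OVA and 2 PBS peaks, in exons 3 to 7 of 37. It had 6 and 5 by the called gene, the others lying in exon 35 or the 3′ UTR and assigned to Gm22720. Its assigned pairs had ratios of 0.249 and 0.255, with fold enrichments of 4.9 and 2.78 in the OVA list against 19.7 and 10.9 in the PBS list. Their OVA log10 p values were -9.05 and -3.58, against -5.81 and -2.91. Col6a4 had 5 PBS peaks against 3 in OVA, or 4 by the called gene, and its assigned pairs had ratios from 0.309 to 0.859. One of its PBS peaks, at chr9:105990350-105990411, with a fold enrichment of 9.38 and a log10 p of -2.44, had no OVA partner. The mouse Col6a4 gene is intact, whereas the human gene is broken and no longer encodes a protein.

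**Figure D4:**
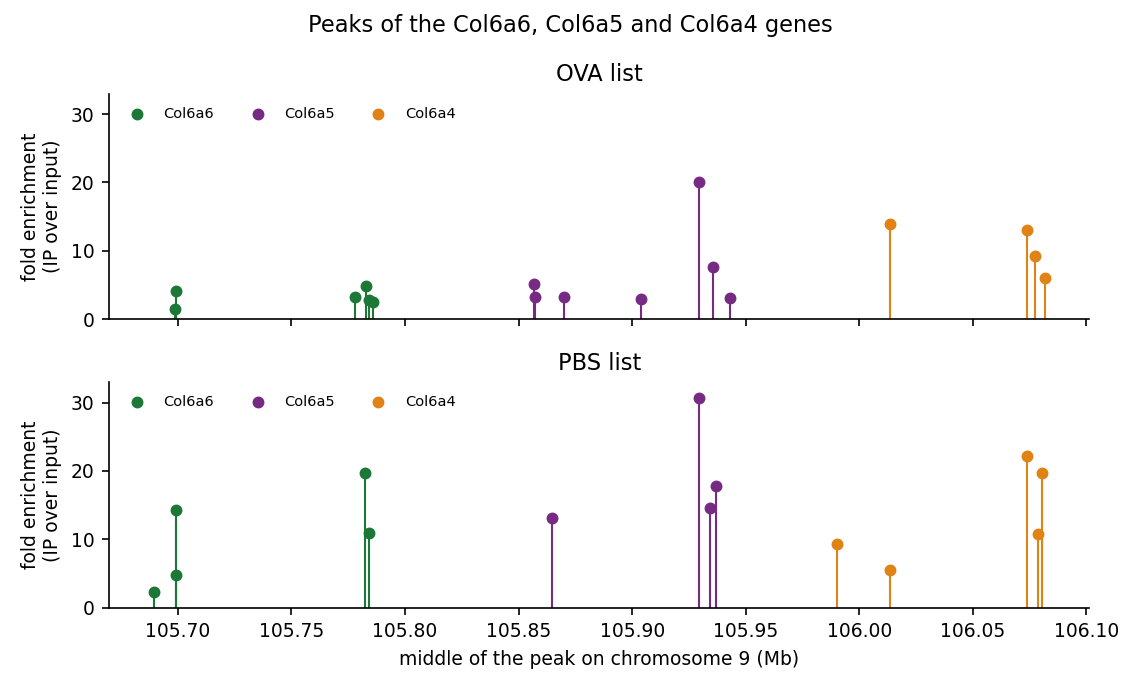
Fold enrichment (vertical, IP over input) of each peak called on Col6a6, Col6a5 or Col6a4 against its middle on chromosome 9 (horizontal, Mb), in the OVA list (top) and the PBS list (bottom). The Col6a5 peak in exon 7 is the highest in both lists, at 20 and 30.6, and Col6a5 has 7 peaks in OVA and 4 in PBS.

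Type VI peaks of the OVA list often ran over an exon border, with 17 of 30 made of more than 1 block (56.7%), beside 24.1% of all OVA peaks. In the PBS list 7 of 25 did so (28%), beside 21.4%. Blocks in the middle of a peak are whole exons, and the peaks called on collagen genes held 10 different ones. Each was a multiple of 3 bp in length, and 5 were multiples of 9 bp, the length of 3 codons for the glycine-led triplet of the helix. These were 2 of 63 bp in Col6a5, 1 of 90 bp in Col6a2, and 1 each of 27 and 54 bp in Col23a1. Over all peaks, 40.7% of 2156 such blocks were multiples of 3 and 14.7% multiples of 9.

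Of the anchoring fibril collagen Col7a1, which ties the epithelial basement membrane to the tissue below, the OVA list held 1 peak and the PBS list none. It lay at chr9:108973013-108973073 in exon 74 of 119, with a fold enrichment of 8.73 and a log10 p of -2.38. This was the highest p among the assigned OVA collagen peaks.

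Col8a1 and Col8a2 encode the short chains of the hexagonal network of type VIII collagen, made by vessel walls. Col8a2 had 2 OVA peaks of its own in exon 4 of 4, with fold enrichments of 2.65 and 3.67. The second overlapped a PBS peak of 2.74. By the called gene, a 3′ UTR peak of Col8a2 had fold enrichments of 16.8 in OVA and 4.95 in PBS, a ratio of 3.39, with log10 p values of -13.8 and -30.5. Col8a1 had no assigned peak, since its 4 called peaks per list were assigned to Cmss1. The strongest, from exon 3 of 4 at chr16:57628352-57632325, had fold enrichments of 24.6 and 25.6, higher than any assigned collagen peak of the OVA list.

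Among the fibril-associated collagens, which coat fibrils and link them to other matrix, Col12a1 alone had a peak of its own RNA in both lists. It lay in exon 10 of 66, with fold enrichments of 3.52 and 3.44 and log10 p values of -5.22 and -25 in the OVA and PBS lists. Col19a1 had 2 called peaks in the PBS list alone, with fold enrichments of 13.8 and 13.3 and log10 p values of -3.86 and -3.7. Both were assigned to Fam135a. Col28a1, a chain outside the main families, likewise had 1 called peak of 60 bp in the PBS list alone, with a fold enrichment of 5.43.

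The transmembrane collagens, which span the cell membrane and can be shed from it, gave the highest fold enrichment of the assigned OVA collagen peaks. Col23a1 reached 20.6 in the OVA list at chr11:51574187-51581170 and 18.1 in the PBS list, with log10 p values of -562 and -1050. Col13a1, found at cell contacts, had a 5′ UTR peak with fold enrichments of 4.15 and 3.45 and an exon peak with 3.23 and 3.13. All 3 pairs of this family had the lower p in the PBS list and the higher fold enrichment in the OVA list. The ratios were 1.14 for Col23a1 and 1.2 and 1.03 for Col13a1, the last under the 1.08 of all pairs.

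Col18a1, a multiplexin of basement membranes whose end fragment is endostatin, had 4 OVA and 3 PBS peaks. The strongest, from exon 3 of 42 at chr10:77095994-77112992, had fold enrichments of 8.05 in OVA and 6.22 in PBS, with log10 p values of -170 and -82.5. Its 3′ UTR peak was near equal, at 3.51 and 3.56. Col15a1, the other multiplexin, had no peak in either list.

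Altogether 27 collagen genes had an assigned or called peak in a list, and 17 of the 44 had neither. These were Col2a1, Col4a1, Col4a2, Col4a6, Col5a3, Col9a1, Col9a2, Col10a1, Col11a1, Col11a2, Col15a1, Col16a1, Col17a1, Col20a1, Col22a1, Col25a1 and Col26a1. Several of them, such as Col2a1, Col9a1, Col10a1 and Col11a1, are known mainly from cartilage. A gene without a listed peak may still be transcribed or carry the mark below what the caller detects.

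Of 52 genes that modify, export, process, cross-link, bind or recognise collagen, 39 had a called peak in OVA and 39 in PBS. The share of all genes with a called peak is not at hand. This count and the gene counts below are therefore not read as a trait of these genes. Of their 65 pairs, 2 were at least 2 times higher in OVA and 2 in PBS, beside 7.63% and 6.79% of all pairs. The lower p was in the OVA list for 43 of them (66.2%), beside the 57.3% of all pairs given above.

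The lysyl oxidases, which cross-link collagen and elastin, all had peaks, 5 of 5 in both lists, and each of their 6 pairs had the lower p in the OVA list. The 3′ UTR peak of Lox had fold enrichments of 6.71 and 6.88 in the OVA and PBS lists and log10 p values of -898 and -244. That of Loxl4 had 13.7 and 5.26, with log10 p values of -130 and -18. Export genes, which load the long procollagen into large vesicles, had peaks on 4 of 7 in both lists, and 11 of their 12 pairs had the lower p in the OVA list.

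Hydroxylation and folding genes had peaks on 11 of 17 in each list, with Crtap in OVA alone and P3h4 in PBS alone, and the lower p in the OVA list for 10 of 14 pairs. Serpinh1, the chaperone of procollagen, had 3′ UTR peaks of 3.04 and 2.87 in the OVA list against 2.53 and 2.03 in the PBS list. Plod2, a lysyl hydroxylase of telopeptides, had 12.3 against 15.7, with log10 p values of -236 and -405.

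Propeptide removal differed from these groups, with 7 of 8 genes in OVA and 6 in PBS, and the lower p in the OVA list for 3 of 9 pairs. The 3′ UTR peak of Pcolce2, an enhancer of the enzyme that trims the C-terminal propeptide, had 15-fold enrichment in OVA and 30.9 in PBS, with log10 p values of -127 and -760. Fibril-binding partners had peaks on 4 of 5 genes in both lists, with the lower p in the OVA list for 5 of 8 pairs. Receptors and uptake genes had peaks on 8 of 10 in OVA and 9 in PBS, and 8 of their 16 pairs had the lower p in the OVA list. The collagen receptor gene Ddr2 had 4 peaks per list, with fold enrichments of 15 and 11.7 for the strongest.

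Markers of lung cells were listed in both groups. Epithelial genes had a called peak for 8 of 10 in both lists, with none for Sftpc and Krt5. Endothelial genes had one for 4 of 4. Fibroblast and mural genes had one for 4 of 7 in both lists, with none for Acta2, Fn1 and Eln. Cartilage and bone genes had one for 3 of 6 in OVA and 2 in PBS. The lower p was in the OVA list for 6 of 12 epithelial pairs, 4 of 10 endothelial pairs, all 4 cartilage and bone pairs and 4 of 10 fibroblast and mural pairs, these 4 all of Myh11, while every pair of Pdgfra, Pdgfrb and Tcf21 had the lower p in the PBS list. Together these were 18 of 36 pairs (50%), beside 57.3% of all pairs. With the muscle genes below, which had 0 of 23, they were 18 of 59 (30.5%). Some pairs of Ttn and of Nkx2-1 shared a PBS peak, whereas the 45 collagen pairs held 45 different PBS peaks.

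Skeletal and heart muscle genes stood apart, with 26 called peaks on 2 of 5 genes in OVA and 49 on 4 in PBS. In PBS 31 of the 49 overlapped no OVA peak (63.3%), beside 14.5% of all PBS peaks, and in OVA 3 of 26 overlapped no PBS peak (11.5%), beside 19.4% of all OVA peaks. Ttn held 23 and 40 of these peaks, and Myh6 and Myh7 had peaks in the PBS list alone. The lists thus also differed in peaks of muscle genes, and the part of tissue makeup in the collagen values was not tested.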

How the data were processed

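Lung RNA depleted of ribosomal RNA was sequenced as 6 IP and 6 input libraries, 3 of each per group. The authors trimmed reads with FASTP, mapped them with HISAT2, called peaks with exomePeak, annotated them with ChIPseeker and deposited 1 list per group. How replicates were combined is not given in the sources used here. The submitters' processing notes name HISAT2 and ChIPseeker without versions. As deposited, a fold enrichment is an IP to input ratio, and each score is a log10 value, of p or of the false discovery rate (FDR). Lists hold no values of single mice and no reads per peak. Deposited positions fit GRCm38, as all 71 OVA and 65 PBS peaks called on a collagen gene overlapped its RefSeq position. Starts were read as 1 bp before the first base, since each single-block peak was 1 bp wider than its block.

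Peaks were members by the assigned gene symbol. The called gene, given by its Ensembl identifier, was the main alternative. Exonic blocks of both lists were compared, with a minimum overlap of 1 bp on the same chromosome; the lists give no strand of a peak. Each OVA peak was paired with the PBS peak of the largest overlap, and a ratio of at least 2 in either direction counted as a difference. The lower p and the number of block bases of a pair were compared after the data were seen. The overlap code was tested on simulated peaks. Alternatives were stricter overlap, FDR under 0.05, fold enrichment of at least 2, protein-coding transcripts, 1 peak per gene and the called gene. Genes named one by one were the main lung collagens, the 3 peaks of highest fold enrichment at FDR under 0.05, the 3 genes with most peaks, the 3 peaks of lowest p without overlap in each list, the 3 most extreme pairs in each direction and genes of 1 list. Other named genes were chosen after their values were seen. Members and lists were chosen with earlier results of these data known. Python 3.11.15, pandas 2.3.3, numpy 2.4.6, scipy 1.17.1 and matplotlib 3.10.9 were used.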

Additional observations from a re-analysis of the deposited data

How the results depend on the processing

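No paired analysis was possible because each group had 1 list for its 3 mice, which also kept single mice from being left out. Of the alternatives, 67 gave a value within the limits set for them and 24 did not. With protein-coding transcripts alone, the collagen peaks fell from 60 to 30 (OVA) and from 52 to 23 (PBS), and the genes from 22 to 14 and from 20 to 12. The peaks kept were 50% (OVA) and 44.2% (PBS) of the collagen peaks. Of all peaks, 41.8% and 42.5% were assigned to protein-coding transcripts. With identical borders as the overlap, 56 OVA and 48 PBS collagen peaks had no partner. With an overlap of 50% of both peaks, 11 PBS peaks had none, and by the called gene 8. Shares of all peaks under these stricter overlaps are not at hand, so those counts are not read as a trait of collagen peaks. With the peak of the lowest p of each gene, 45.5% lay in exons, 50% in 3′ UTRs and 4.55% in 5′ UTRs in the OVA list, and 40%, 55% and 5% in the PBS list, and the median fold enrichment was 6.27 in OVA and 5.48 in PBS. Without type VI genes, a setting chosen after seeing the data, 40% (OVA) and 29.6% (PBS) lay in exons and 43.3% and 51.9% in 3′ UTRs, and 54.2% of pairs had the lower p in OVA. At a ratio of 1.5, 4 pairs were higher in OVA and 7 in PBS. The shares of all pairs at this ratio are not at hand, so these counts are not read against the lists. With peaks assigned to and called on the same gene, also chosen after seeing the data, 0 pairs were at least 2 times higher in OVA. With the partner of the smallest overlap, again chosen after seeing the data, 2 pairs were at least 2 times higher in OVA and 5 in PBS. The fewer peaks entering several of these settings follow from their construction, and other causes were not tested. The search for sequence motifs inside whole peaks was not run, as no genome was used here.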
